A study of Amaranthus palmeri with 48 samples.

Results

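The genes described here are 41 gene models of Palmer amaranth (Amaranthus palmeri) whose leaf RNA was lower after the herbicide chlorsulfuron and stayed within a set band after 2,4-D, atrazine and lactofen, out of 26353 gene models in the count table. They were chosen by their measured values. Each count was divided by its library total and given per 1000000 counts (CPM), and a gene had to reach 1 CPM in all 18 untreated libraries with a mean there under 1000 CPM, which 14303 gene models did. For each herbicide, d is the mean log2(CPM + 1) of treated libraries minus that of untreated libraries of the same line and batch, averaged over the 2 lines. A member has d of -0.7 or below for chlorsulfuron and an absolute d under 0.5 for each of 2,4-D, atrazine and lactofen. The limit of 200 genes was not reached. Members' d for chlorsulfuron ran from -2.15 to -0.71, with a median of -0.87, and 9 members were at -1 or below. The member nearest the threshold had -0.709 and the gene just outside had -0.699. The nearest members and the nearest genes outside had d of -0.454 and -0.513 for 2,4-D, -0.498 and -0.501 for atrazine, and -0.483 and -0.502 for lactofen. All of these are descriptions of the choice, and so are the chlorsulfuron, 2,4-D, atrazine and lactofen responses given further on.

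The study asked how plants that resist several herbicides through metabolism differ in leaf transcripts from susceptible plants. It has 48 leaf libraries, in 16 groups of 3, collected 6 h after treatment in 3 batches. Growth-chamber plants raised from seed were either sprayed with 1 of 5 herbicides at a height of 10-12 cm or left untreated, and doses are not stated in the labels. The phenotype labels are Resistant (title prefix KCTR) and Susceptible (title prefix KSS), here the resistant and the susceptible line, and both lines were in every batch. Batch 1 held 2,4-D and mesotrione, batch 2 held chlorsulfuron and atrazine, batch 3 held lactofen, and each batch had its own untreated controls of both lines. Chlorsulfuron and atrazine share the batch 2 controls, and 2,4-D and mesotrione share the batch 1 controls. Titles number the plants 5, 7 and 8 (resistant) and 5, 6 and 7 (susceptible) in batches 1 and 2, and 1, 4 and 8 (resistant) and 3, 5 and 7 (susceptible) in batch 3. Values of the 3 libraries of a group are given in that order. The labels do not say whether an equal number means the same plant, so p-values measure the spread between these libraries.

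Chlorsulfuron is a sulfonylurea that inhibits acetolactate synthase, the enzyme that begins the synthesis of the branched-chain amino acids valine, leucine and isoleucine, and growth of treated plants stops in the young tissues before older leaves show damage. Atrazine blocks electron transport at photosystem II, 2,4-D acts as a synthetic auxin, lactofen inhibits protoporphyrinogen oxidase in tetrapyrrole synthesis, and mesotrione inhibits 4-hydroxyphenylpyruvate dioxygenase, which supplies plastoquinone and tocopherol. Resistance to several such compounds at once can come from enzymes that modify and conjugate herbicides, such as cytochrome P450s and glutathione transferases.

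Few of the genes that were low after chlorsulfuron met the other conditions. Of the genes that passed the control filter, 2396 had a chlorsulfuron d of -0.7 or below, and the 41 members were 1.71% of them. A d of -0.5 or below was also seen in 88.4% of these 2396 genes for lactofen, in 76.8% for atrazine, which shares its controls with chlorsulfuron, and in 32.0% for 2,4-D. Of the 2396 genes, 1528 had an absolute d under 0.5 for 2,4-D, 464 for atrazine and 210 for lactofen, and the 41 members had it for all 3.

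The files do not pair identifiers with gene names and no annotation was used, so members are given by identifier and no role can be stated for any of them. By their identifiers, 37 members are annotated as mRNA and 4 as tRNA. Members carry the names of 14 of the 17 numbered chromosomes, with 6 on Chr01. A further 9 members, 22.0%, have Chr00 in the identifier, outside the numbered chromosomes, against 0.475% of the genes that passed the control filter (68 of 14303). The 41 members hold 36 distinct count profiles. In 3 sets, which take in 8 members, every library has the same count for each identifier of the set. A pair of mRNA identifiers, AmaPaChr00Ag262080 and AmaPaChr00Ag262400, form such a set, and the 4 tRNA identifiers, among them AmaPaChr00Ag261440 and AmaPaChr00Ag261840, form another. Identical counts cannot be told apart from reads shared between near-identical copies, so each set holds 1 measurement. Only 0.378% of the genes that passed the filter had such a twin. Counted once per profile, 4 of 36 profiles, 11.1%, were of Chr00.

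In untreated leaves the members' mean over the 18 controls, with TMM scaling factors applied as in all CPM values from here on, ran from 2.79 to 1003.3 CPM, with a median of 40.7 CPM against 26.5 CPM for all genes that passed the filter. There were 11 members under 10 CPM and 9 at 100 CPM or more. The lowest count of any member in any library was 20, and a read pair usually adds 2 counts. Library totals ranged from 44999718 to 62829178 counts in batch 2, which held the chlorsulfuron libraries, from 16583010 to 72979429 in batch 1, and from 41828563 to 59908233 in batch 3. Across the 18 controls the members' coefficient of variation ran from 14.2% to 162.3%, with a median of 43.3%. A set of libraries did not have its best match under its own plant number. On 26 genes that were on in some batch 1 plants and off in others, 15 of the 18 batch 2 libraries had their best match in the batch 1 plant with the same line and number, in 73.1% to 96.2% of these genes. The other 3, the libraries numbered 7 of the susceptible line, matched susceptible plant 6 best, at 84.6% (chlorsulfuron), 80.8% (atrazine) and 92.3% (control), against 57.7%, 42.3% and 61.5% for their own number. Were they of plant 6, each susceptible group of batch 2 would hold fewer than 3 plants, which was not tested. Counts that rest on these 3 libraries are given with and without them, and values of single members are given with them.

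The chlorsulfuron libraries of both lines lay below every other library in the members' median level. For each library, the log2 CPM of each member was set against its mean over the 18 controls, and the median over the members was taken. It was -0.84 to -0.78 in the 3 chlorsulfuron libraries of resistant plants and -1.11 to -0.79 in those of susceptible plants. The batch 2 controls were at 0.07 to 0.10 in resistant plants and 0.10 to 0.17 in susceptible plants. The other treated libraries and the other controls lay between -0.56 and 0.35. The lowest of these were lactofen libraries, of which 3 were at -0.53 or below.

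**Figure D1:**
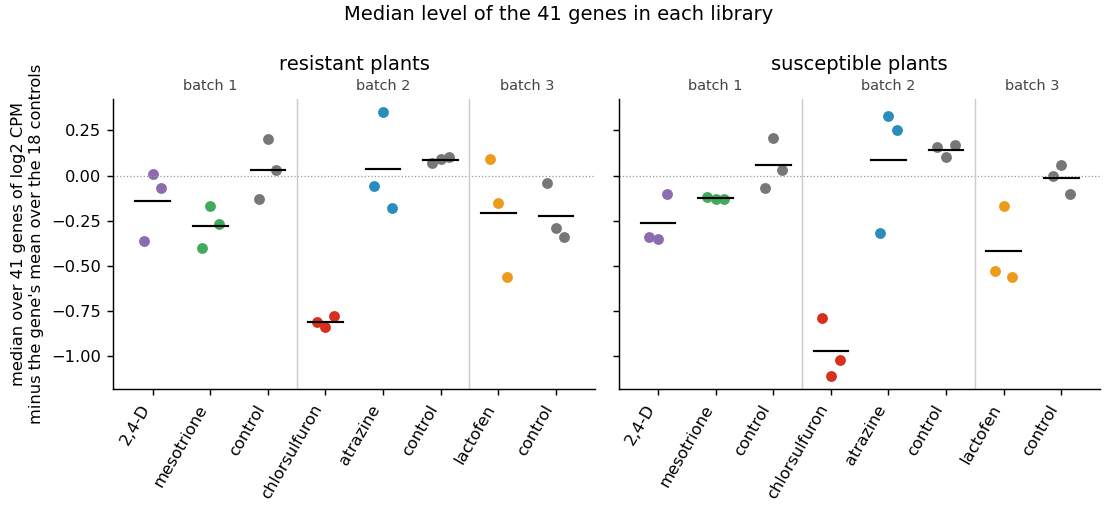
Median over the 41 genes of log2 CPM minus the gene's mean over the 18 controls (y axis), per library (points) and as group mean (bars), by herbicide, batch and line. The 3 chlorsulfuron libraries of each line, at -1.11 to -0.78, lie below all others, which reach down to -0.56.

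AmaPaChr03Ag058100 had the lowest d of all members. It had 15.8, 11.8 and 19.1 CPM in chlorsulfuron-treated resistant plants, against 71.0, 85.3 and 80.5 CPM in their batch 2 controls. In susceptible plants it had 53.5, 22.3 and 18.2 CPM after chlorsulfuron, against 157.5, 109.1 and 137.2 CPM in the controls. The groups did not overlap in either line. The atrazine libraries of the same batch, at 70.8 to 93.6 CPM (resistant) and 117.9 to 170.0 CPM (susceptible), lay around the controls. The lactofen libraries of susceptible plants, at 52.1 to 85.7 CPM, lay below their batch 3 controls, at 128.9 to 180.9 CPM. In resistant plants the lactofen libraries held 52.9 to 124.2 CPM, against 24.0 to 143.5 CPM in controls. The log2 change after chlorsulfuron was -2.34 (SE 0.44) in resistant plants and -2.10 (SE 0.44) in susceptible plants. AmaPaChr14Ag221900 was the next of the members whose chlorsulfuron libraries lay below the batch 2 controls in each line. It had 11.2, 10.8 and 10.1 CPM in chlorsulfuron-treated resistant plants, against 38.7, 81.3 and 22.1 CPM in controls, and 18.8, 10.5 and 11.9 CPM in chlorsulfuron-treated susceptible plants, against 34.3, 27.9 and 31.9 CPM in controls. Its log2 change was -2.15 (SE 0.42) in resistant plants and -1.19 (SE 0.40) in susceptible plants.

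The most abundant member, AmaPaChr07Ag131300, was close to the upper limit of the choice, with a control mean of 970.9 CPM before TMM factors were applied. It had 775.8, 741.2 and 744.9 CPM in chlorsulfuron-treated resistant plants, against 1291.1, 1674.8 and 1048.1 CPM in controls. In susceptible plants it had 491.2, 529.1 and 517.0 CPM after chlorsulfuron, against 939.1, 957.7 and 1051.4 CPM in controls. The chlorsulfuron libraries of each line were close together and apart from the controls, with log2 changes of -0.83 (SE 0.25) in resistant and -0.94 (SE 0.25) in susceptible plants. The next most abundant, AmaPaChr01Ag013600, overlapped with its controls in both lines. It had 231.5, 500.3 and 414.1 CPM after chlorsulfuron against 488.3, 952.5 and 686.3 CPM in controls of resistant plants, and 251.3, 239.4 and 166.8 CPM against 198.4, 513.5 and 622.7 CPM in susceptible plants. Its adjusted p in edgeR's test was 0.34 in resistant and 0.25 in susceptible plants. AmaPaChr09Ag154380 varied little, with a coefficient of variation of 15.5% over the 18 controls. It had 51.7, 59.9 and 57.4 CPM in chlorsulfuron-treated resistant plants, against 121.3, 103.3 and 137.3 CPM in controls, and 72.1, 54.3 and 52.0 CPM in chlorsulfuron-treated susceptible plants, against 127.4, 135.7 and 111.9 CPM in controls.

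**Figure D2:**
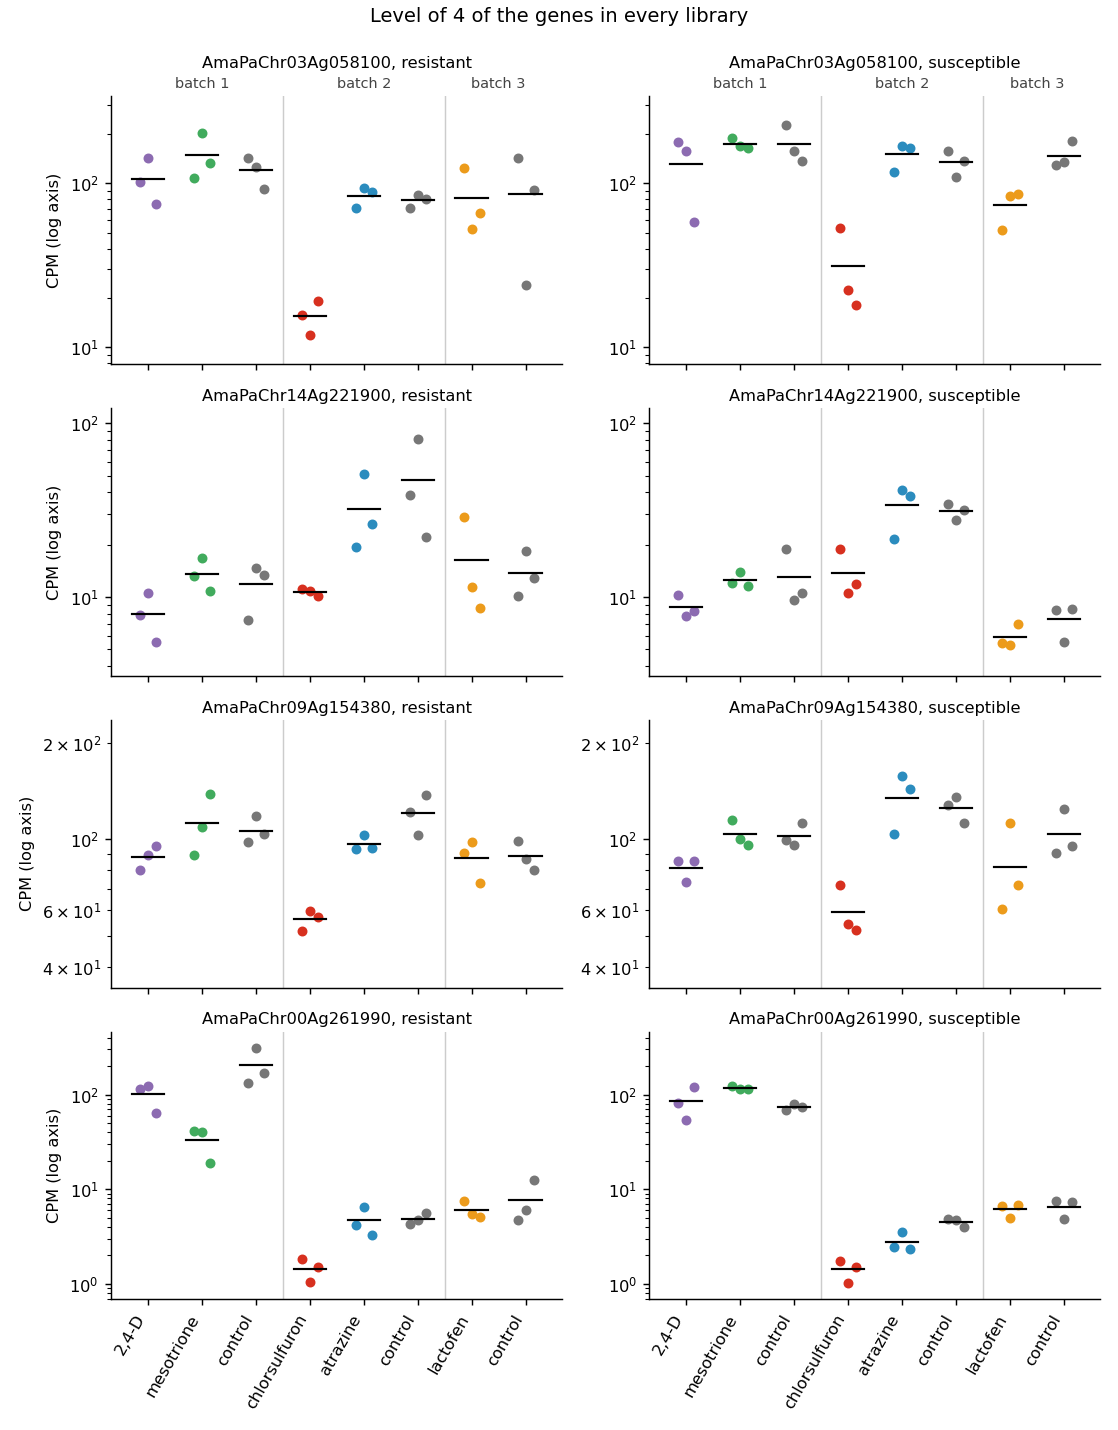
CPM (log y axis) of 4 of the genes in every library (points) with group means (bars), by herbicide and batch, resistant plants on the left and susceptible plants on the right. AmaPaChr03Ag058100 and AmaPaChr09Ag154380 are low in the chlorsulfuron libraries against the controls of all batches, AmaPaChr14Ag221900 only against those of batch 2, and AmaPaChr00Ag261990 is far higher in batch 1 than in batches 2 and 3.

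Over all members, edgeR's quasi-likelihood test, with p-values adjusted over 20645 genes, called 25 of the 41 lower after chlorsulfuron in resistant plants (23 of the 36 profiles) and 29 in susceptible plants (24 profiles). None was called higher. Over all genes tested, 11.8% were called lower in resistant and 15.0% in susceptible plants, but these contrasts chose the members, so nothing is read from the counts. At least 1 line called 34 members (17.0% of all genes) and both lines called 20 (9.82%). The log2 changes ran from -2.34 to -0.48 in resistant plants, with a median of -1.09, and from -2.10 to -0.57 in susceptible plants, with a median of -1.04, while the medians of all genes were 0.03 and 0.05. All 3 chlorsulfuron libraries lay below all 3 controls in 32 members in resistant plants (20.9% of all genes), in 34 in susceptible plants (25.4% of all genes), and in 27 in both (16.4%). Without the 3 susceptible libraries numbered 7 these counts were 36 in susceptible plants (28.8% of all genes) and 29 in both lines (17.3%). A d of -0.7 or below held in 30 members within resistant plants, in 37 within susceptible plants and in 26 within both, and 6 members met every condition in each line taken alone. The susceptible count of 29 was 15 without the 3 libraries numbered 7 (6.84% of all genes), with a median log2 change of -1.02. It was 17 without chlorsulfuron library 7 alone and 19 without chlorsulfuron library 6. With library totals in place of the TMM factors it was 18, where 2368 of 20645 genes were called lower. Set beside the resistant calls of the fit with all libraries, the 15 left 30 members called in at least 1 line (12.5% of all genes). In both lines 10 were called (5.94%). With total counts, the median of all genes in that comparison was 0.18 in place of 0.05. In leaf RNA from whole tissue, fewer cells of a type and less RNA per cell cannot be told apart.

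**Figure D3:**
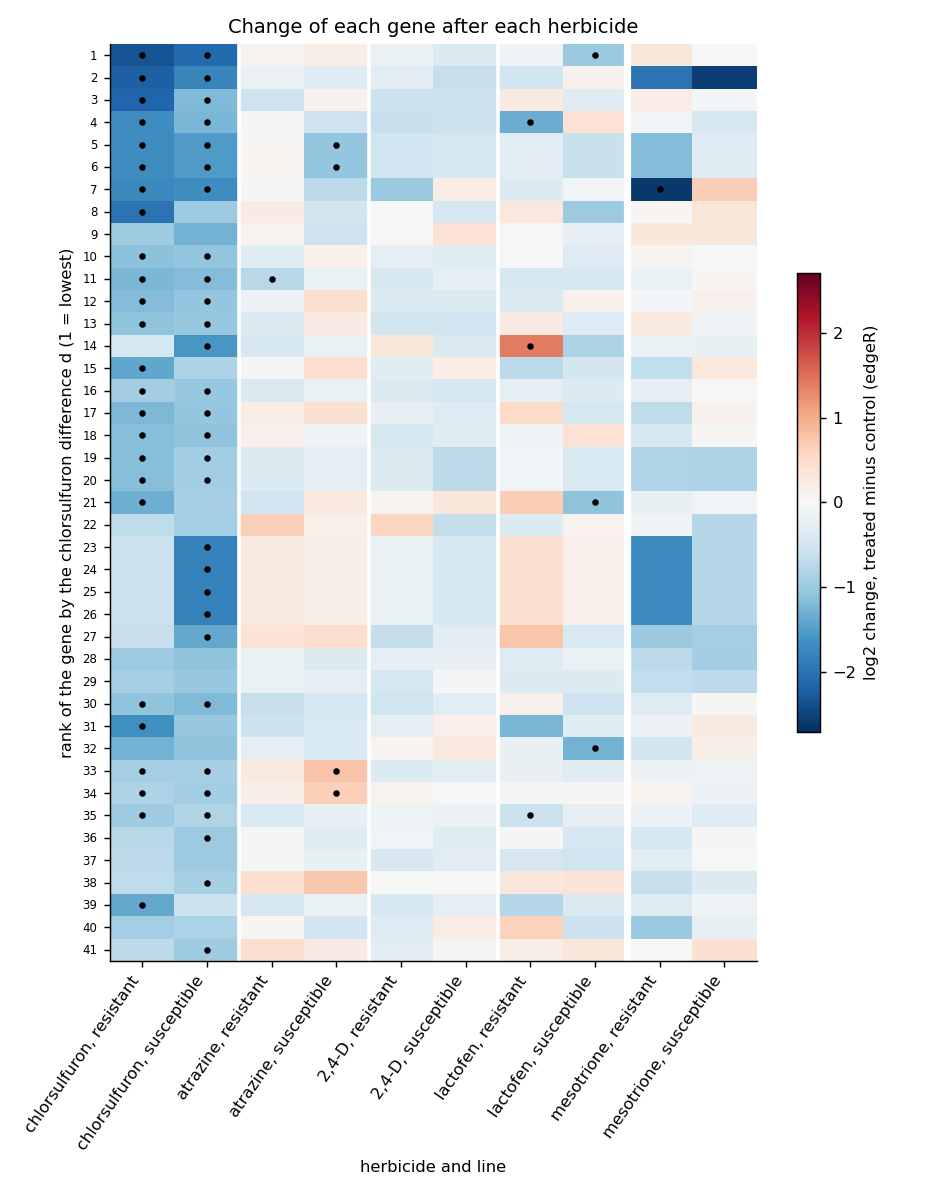
Log2 change of each of the 41 genes (rows, by rank of the chlorsulfuron d) after each herbicide in each line (columns), as the edgeR estimate of treated minus control in the same batch. Black dots mark an adjusted p under 0.05, which 25 genes had after chlorsulfuron in resistant and 29 in susceptible plants. Mesotrione, in the last 2 columns, was not used to choose the genes.

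After the 3 herbicides that the choice held within a band, few members were called in a single line. After atrazine 1 member was called lower in resistant plants (15.4% of all genes lower), and 2 identifiers of 1 profile were called lower and 2 members higher in susceptible plants (15.4% lower and 20.6% higher of all genes). Without the 3 susceptible libraries numbered 7, none was called after atrazine in susceptible plants. After lactofen 1 member was called higher and 2 lower in resistant plants (26.1% and 27.6% of all genes), and 3 were called lower in susceptible plants (29.3%). The higher call was AmaPaChr02Ag038490, at a log2 change of 1.40 (adjusted p = 0.047), and it rested on 1 library. This gene held 298.1, 22.2 and 15.6 CPM in lactofen-treated resistant plants, against 36.0, 53.9 and 37.6 CPM in controls. Without the library at 298.1 CPM the change was -1.17 (adjusted p = 0.027). With library totals or batch 3 alone in the fit, or with any 1 of the 3 controls left out, the gene was higher without a call (adjusted p = 0.054 to 0.25). Blocked by plant number the change was -0.05. After 2,4-D edgeR called no member in either line, where it called 3.14% (resistant) and 5.27% (susceptible) of all genes. At an unadjusted p under 0.05 there were 1 (resistant, where 16.2% of all genes had such a p) and 2 (susceptible, 18.2%) after 2,4-D. DESeq2 called 1 lower in resistant plants (506 of 20645 genes lower) and 0 in susceptible plants. Because d is a mean over lines, single lines could pass the band: the absolute d was 0.5 or more in 8 members for lactofen in resistant and 14 in susceptible plants, in 6 and 9 for atrazine, and in 2 and 3 for 2,4-D. The median log2 change of the members after lactofen was -0.07 (resistant) and -0.35 (susceptible), after atrazine -0.05 and -0.18, and after 2,4-D -0.31 and -0.33. AmaPaChr10Ag171110 shows such a split. Its lactofen libraries held 16.5, 11.3 and 7.53 CPM in resistant plants, against 10.1, 6.03 and 6.20 CPM in controls, and 1.77, 9.24 and 1.35 CPM in susceptible plants, against 7.78, 10.5 and 8.15 CPM in controls.

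The choice was then repeated in 1 line and read in the other, whose treated libraries had no part in it. The controls of the other line entered only through the filter on control levels. Every condition was kept except the mean over lines. Chosen in resistant plants alone, 58 genes met the rule, 19 of them members. In susceptible plants, 57 of these 58 had a log2 change below 0 after chlorsulfuron, where 46.9% of all genes tested did. The median of the 58 was -1.03, with a range of -2.10 to 1.23. EdgeR called 39 of them lower, 67.2%, and 1 higher, where 15.0% of all genes tested were called lower. The lower calls became 25 with total counts, where 2368 of 20645 genes were called lower. They were 23 without susceptible chlorsulfuron library 7. Without the 3 susceptible libraries numbered 7 they were 17, where 6.84% of all genes were called lower. Chosen in susceptible plants alone, 36 genes met the rule, 18 of them members. In resistant plants all 36 had a log2 change below 0 after chlorsulfuron, where 47.6% of all genes did. The median of the 36 was -0.85, with a range of -2.15 to -0.17. EdgeR called 15 of them lower, 41.7%, and none higher, where 11.8% of all genes were called lower. Without the 3 susceptible libraries numbered 7 the choice gave 31 genes, of which 30 had a log2 change below 0 in resistant plants and 13 were called lower.

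Genes that were low after chlorsulfuron without the conditions on the other herbicides also read low in the other line, which is given as a description without a test. Of the 2276 genes that had a chlorsulfuron d of -0.7 or below in resistant plants, whatever the other herbicides did, 77.7% were called lower in susceptible plants, with a median log2 change of -1.46. Of the 2649 such genes of susceptible plants, 62.3% were called lower in resistant plants, with a median of -1.18. Fewer of the chosen genes kept the band for the other 3 herbicides in the other line. Of the 58 genes chosen in resistant plants, 39 had a chlorsulfuron d of -0.7 or below in susceptible plants, 13 stayed within 0.5 for all 3 others, and 6 did both. Of the 36 genes chosen in susceptible plants, 19 had such a chlorsulfuron d in resistant plants, 13 stayed within 0.5 for all 3 others, and 6 did both. In the line not used to choose, 18 of the 58 genes were called lower and 7 higher after lactofen. Of all genes tested there, 29.3% were called lower and 6272 of 20645 higher. After atrazine 4 were called lower and 6 higher (15.4% and 20.6% of all genes). After 2,4-D 1 was called lower and 0 higher (5.27% of all genes in either direction). Of the 36 genes, 6 were called lower and 4 higher after lactofen (27.6% and 26.1% of all genes). After atrazine 3 were called lower and 3 higher (15.4% of all genes lower and 3394 of 20645 higher). After 2,4-D 0 were called (3.14% of all genes).

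**Figure D4:**
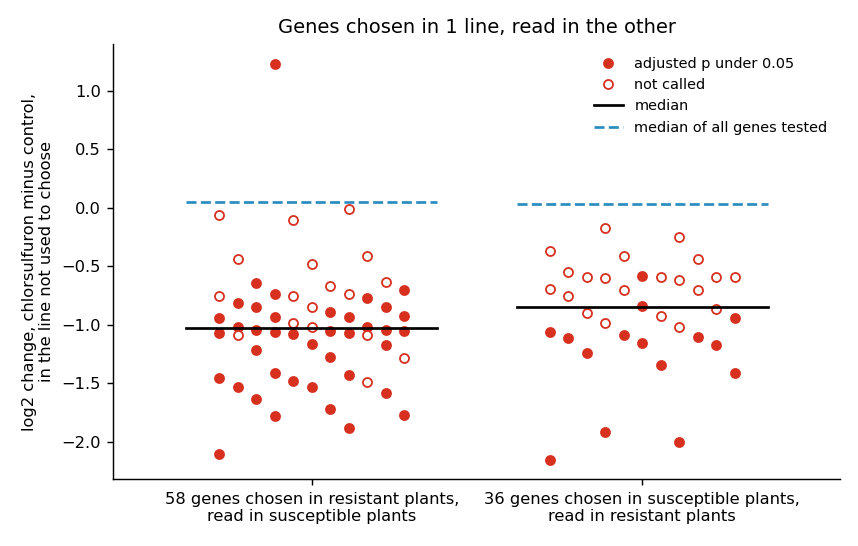
Log2 change after chlorsulfuron (y axis, edgeR, treated minus control) of genes chosen by the rule in a single line and read in the other line, 1 point per gene. Filled points have an adjusted p under 0.05 (39 lower and 1 higher of 58, 15 lower of 36), black bars are medians (-1.03 and -0.85), and dashed lines are medians of all genes tested (0.05 and 0.03).

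The chlorsulfuron libraries were also set against the untreated controls of batches 1 and 3, which gave d its values for other herbicides only. A difference across batches holds both treatment and batch, which cannot be told apart here. The chlorsulfuron libraries and the batch 2 controls chose the members, so nothing is read from the counts of members below. Members had a median difference in log2 CPM of -0.79 from the batch 1 controls and -0.61 from the batch 3 controls in resistant plants, and of -0.92 and -1.0 in susceptible plants. Against their own batch 2 controls the medians were -0.96 and -0.97. All 3 chlorsulfuron libraries lay below all 6 controls of batches 1 and 3 in 19 of 41 members in resistant plants, where 15.0% of all genes did. The count was 24 in susceptible plants (16.8% of all genes), and 14 in both lines (10.6%), and without the 3 susceptible libraries numbered 7 they were 24 and 14 as well. Averaged over lines, 18 members were at -0.7 or below against the controls of each of the 3 batches, as 11.1% of all genes were. Against the controls of batches 1 and 3 alone the count was also 18 (13.7% of all genes). Without the 3 susceptible libraries numbered 7, 16 members were so against all 3 batches (10.5% of all genes). Another 7 members were at or above the level of the batch 1 or batch 3 controls, as 59.0% of all genes were, and 7 were so without those 3 libraries.

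The members differed in this. For AmaPaChr03Ag058100 the chlorsulfuron libraries lay 2.72, 2.25 and 2.22 log2 units under the controls of batches 1, 2 and 3. For AmaPaChr09Ag154380 the differences were 0.85, 1.07 and 0.71 log2 units, again under the controls of every batch. AmaPaChr14Ag221900 was at the level of the other batches after chlorsulfuron, with 10.1 to 18.8 CPM in the 6 chlorsulfuron libraries, against 5.54 to 18.9 CPM in the 12 controls of batches 1 and 3 and 22.1 to 81.3 CPM in the 6 controls of batch 2. Its batch 2 controls thus stood 1.51 log2 units above those of batch 1 and 1.75 above those of batch 3. Batch 2 controls were more than 1 log2 unit above those of batch 1 or 3 in 8 members (5.10% of all genes) and more than 1 below in 4 (5.49%). The part that batch differences had in the members' chlorsulfuron values was not tested.

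**Figure D5:**
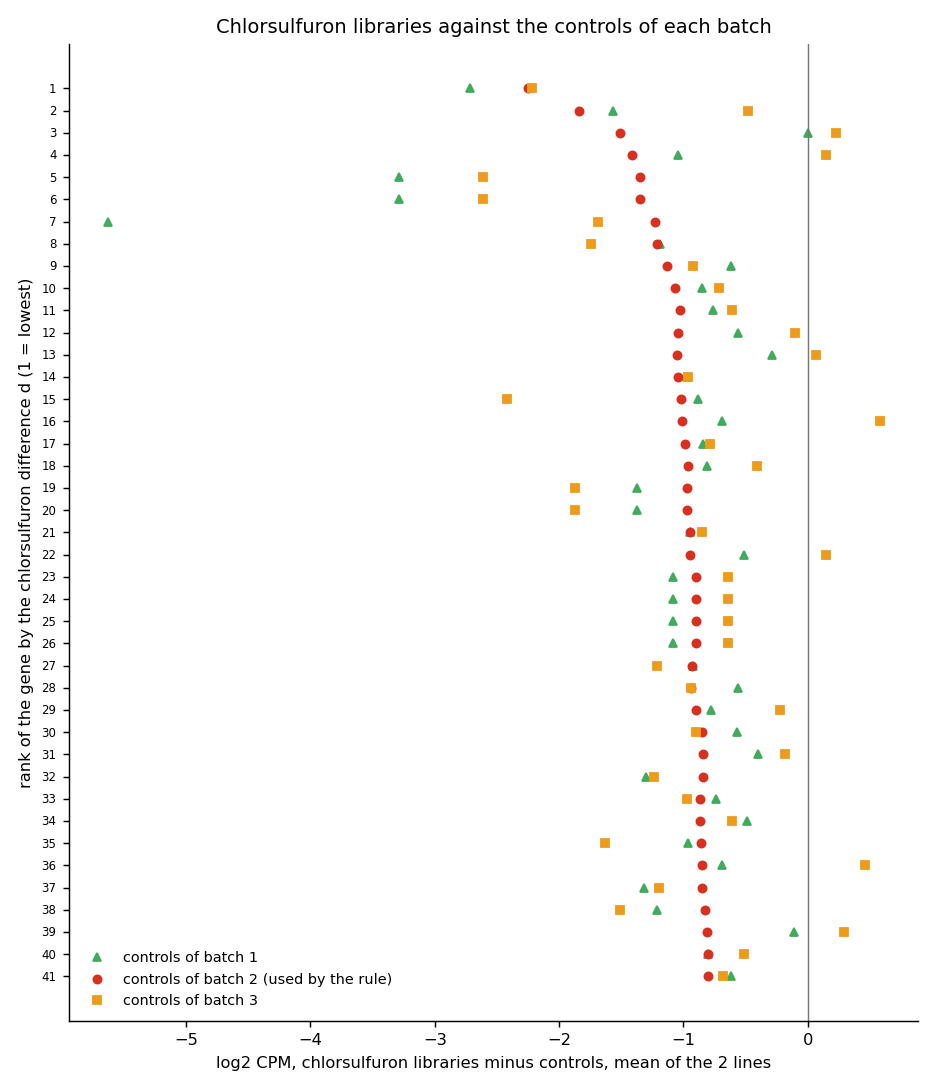
Log2 CPM of the chlorsulfuron libraries minus the controls of batch 1 (triangles), batch 2 (circles, used by the rule) and batch 3 (squares), averaged over the lines, for each of the 41 genes by rank of d. For 18 genes all 3 differences are at -0.7 or below, and for 7 genes a triangle or square lies at or above 0. Of all genes tested, 11.1% and 59.0% meet these conditions.

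AmaPaChr00Ag261990 had the widest spread over batches. In batch 1 it was at 130.7, 307.2 and 170.0 CPM in untreated resistant plants and at 68.4, 80.0 and 73.9 CPM in untreated susceptible plants. The 12 controls of batches 2 and 3 held 4.00 to 12.4 CPM. After chlorsulfuron it held 1.81, 1.04 and 1.5 CPM in resistant plants and 1.73, 1.03 and 1.5 CPM in susceptible plants, below the controls of every batch. The batch 2 controls lay below the batch 1 controls in all 9 members of Chr00, which hold 4 count profiles. For the tRNA profile the difference was only -0.18 log2 units. Of all genes, 48.3% had batch 2 controls above those of batch 1.

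Mesotrione was the herbicide that the choice did not use, although its batch 1 controls entered the rule through 2,4-D and the control filter. In resistant plants edgeR called 1 of the 41 members lower, AmaPaChr00Ag261990, and none higher, where 0.203% of all genes were called lower. This gene fell to 40.7, 40.0 and 18.9 CPM in mesotrione-treated resistant plants, against 130.7, 307.2 and 170.0 CPM in controls. The 3 treated libraries lay below all 3 controls, and the log2 change was -2.61 (SE 0.35, adjusted p = 4.3e-05). The same gene held 124.2, 115.2 and 114.4 CPM in mesotrione-treated susceptible plants, against 68.4, 80.0 and 73.9 CPM in controls, with a log2 change of 0.67 (SE 0.33) that was not called (adjusted p = 1.0). DESeq2 called 5 members lower in resistant plants, where it called 91 of 20645 genes lower. EdgeR without resistant control 5 of batch 1 also called 5 members lower there. In susceptible plants edgeR called no member and no gene at all (0.0%), and DESeq2 called no member. At an unadjusted p under 0.05, 12 members were lower in resistant plants (7 profiles, where 2.89% of all genes were lower) and 4 in susceptible plants (3 profiles, where 2.14% were). The members' median log2 change was -0.34 in resistant plants (-0.25 over profiles) and -0.14 in susceptible plants (-0.07 over profiles). In resistant plants 33 of 41 members (28 of 36 profiles) were below 0, against 52.0% of all genes. In susceptible plants 25 members (20 profiles) were below 0, against 53.1% of all genes. All 3 mesotrione libraries lay below all 3 controls in 10 members in resistant plants (5.07% of all genes) and in 5 in susceptible plants (5.84%).

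Split by Chr00 in the identifier, a grouping made after the values were seen and given without a test, the members had unequal medians after mesotrione. All 9 Chr00 members were among the 12 with an unadjusted p under 0.05 in resistant plants, but they hold 4 count profiles. Over the 4 profiles the log2 change ran from -2.61 to -0.81, with a median of -1.44, while the other 32 members had a median of -0.18 and 3 at such a p. In susceptible plants the 4 profiles ran from -0.83 to 0.67, with a median of -0.55, and the other 32 members had a median of -0.04. The direction in resistant plants was shared by other Chr00 genes. Among the 59 Chr00 gene models that passed the control filter and were not members, the median was -0.51 in resistant plants and 16 were called lower, against a median of 0.00 and 0 called lower in susceptible plants. These 59 identifiers were not reduced to distinct count profiles, so the 59 and the 16 may hold fewer measurements. The 4 tRNA identifiers, 1 profile, held 2.19, 2.69 and 2.25 CPM in mesotrione-treated resistant plants, against 3.17, 13.5 and 6.62 CPM in controls (AmaPaChr00Ag261440: log2 change -1.70, SE 0.44, adjusted p = 0.15). AmaPaChr04Ag082430, on a numbered chromosome, was low in both lines without a call. It held 27.7, 34.0 and 18.0 CPM after mesotrione in resistant plants, against 21.3, 181.0 and 115.4 CPM in controls, and 13.8, 34.8 and 24.1 CPM in susceptible plants, against 86.1, 221.0 and 117.0 CPM in controls. In susceptible plants its 3 treated libraries lay below the controls, with a log2 change of -2.54 (SE 0.72, unadjusted p = 0.0012, adjusted p = 1.0). It had the lowest unadjusted p of the members there, followed by AmaPaChr01Ag022190, which held 25.1, 33.6 and 21.4 CPM after mesotrione against 39.7, 61.4 and 50.9 CPM in controls. Requiring mesotrione to stay in the same band as the other herbicides would have kept 28 of the 41 members.

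No member's response to chlorsulfuron was called different between the lines. The interaction (the log2 change of resistant plants minus that of susceptible plants) ran from -1.02 to 1.24, with a median of -0.07 and a median SE of 0.51. EdgeR called 0 members and 0.0% of all genes, and it called 0 members without the 3 susceptible libraries numbered 7. At an unadjusted p under 0.05 there were 4, the tRNA identifiers of 1 profile, where 2.68% of all genes had such a p, and DESeq2 called 0 members and 29 genes. The tRNA profile held 3.88, 3.35 and 3.36 CPM in chlorsulfuron-treated resistant plants, against 5.39, 5.46 and 5.12 CPM in controls. In susceptible plants it held 1.44, 1.65 and 1.22 CPM, against 4.65, 4.82 and 5.85 CPM in controls. The chlorsulfuron libraries lay below the controls in both lines, and for AmaPaChr00Ag261440 and AmaPaChr00Ag261840 the interaction was 1.24 (SE 0.60, unadjusted p = 0.048, adjusted p = 1.0). On the other side, AmaPaChr14Ag221900 had an interaction of -0.96 (SE 0.57, adjusted p = 1.0) and AmaPaChr04Ag077430 of -0.82 (SE 0.51, adjusted p = 1.0). With 1 library left out these ran from -1.30 to -0.32 and from -1.13 to -0.05.

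Of the other interactions, edgeR called 1 member, AmaPaChr00Ag261990 after mesotrione, at -3.28 (SE 0.48, adjusted p = 0.00049), where 0.126% of all genes were called. Its resistant libraries were lower after mesotrione and its susceptible libraries were higher, as given above. With the 18 libraries of batch 1 alone in the fit the value was -3.27 with an adjusted p of 0.06. The call was not particular to this member. Of the 59 Chr00 gene models that passed the control filter and were not members, 16 were also called lower in this interaction. The median of the 59 was -0.27, and identical counts among them were not merged. After lactofen edgeR called 0 members, where 2.26% of all genes were called, and 5 members had an unadjusted p under 0.05 (15.5% of all genes). DESeq2 called 1 member higher, where it called 480 of 20645 genes higher. The smallest adjusted p was that of AmaPaChr10Ag171110, whose lactofen values are given above, with an interaction of 1.75 (SE 0.55, adjusted p = 0.080) that ran from 1.33 to 3.16 with 1 library left out. Without susceptible lactofen library 5, edgeR called 5 members there. AmaPaChr02Ag038490 had a lactofen interaction of 2.26 (SE 0.84, adjusted p = 0.16) that rested on the library at 298.1 CPM given above, and without it the interaction was -0.31. After atrazine edgeR called 0 members, where 0.00969% of all genes were called, with 2 at an unadjusted p under 0.05 (4.11% of all genes) and 0 by DESeq2. After 2,4-D it called 0 members and 0.0% of all genes, with 1 at such a p (1.02% of all genes) and 0 by DESeq2.

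EdgeR called no member different between untreated plants of the lines. In batch 2, where the choice was made, 0 members were called (0.111% of all genes) and 1 had an unadjusted p under 0.05 (7.53% of all genes). Over the mean of the 3 batches 0 were called (3.05% of all genes) and 7 had such a p (16.3% of all genes), and DESeq2 called 0 members in either comparison, as did edgeR without the 3 susceptible libraries numbered 7. Without resistant control 1 of batch 3, edgeR called 2 over the mean. Plant numbers recur across the 3 batches within a line, so this mean may count a plant more than once. Its p-values take every library as independent. AmaPaChr03Ag058100 had the smallest p of the members that were lower in untreated resistant plants over the mean, at 24.0 to 143.5 CPM in the 9 untreated resistant libraries and 109.1 to 226.5 CPM in the 9 untreated susceptible libraries, with a log2 difference of -0.69 (SE 0.24, adjusted p = 0.12). AmaPaChr00Ag261990 had the smallest p of those that were higher, at 0.60 (SE 0.20, adjusted p = 0.087).

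The members did not vary as a single block. After group means were taken out, the deviations of the 36 profiles over the 48 libraries had a median Pearson correlation of 0.09 over 630 pairs, and 6 pairs reached 0.7. The pair with the highest value was AmaPaChr01Ag013630 and AmaPaChr01Ag013600, at 0.96. For AmaPaChr01Ag013600, the library numbered 5 was the lowest of its 3 in all 6 groups of resistant plants that hold that number. These correlations share libraries, scaling and plants, and are given as a description.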

How the data were processed

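Leaf RNA of 48 libraries was sequenced as stranded polyA read pairs, per the labels' protocols. The deposited table gives, for each library, unscaled read counts of every gene model as whole numbers. Tools named in the submitters' processing notes are Trimmomatic, FastQC, STAR and DESeq2, without versions or what each was used for. Which genome build and annotation were used, and whether counting used strand, is not given in the sources used here, so overlapping, antisense or near-identical genes may share reads. Of counts above 0, 99.1% were even, so a fragment usually adds 2. The row with no gene name had 0 counts and was left out.

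The members, gene lists and tests were chosen with earlier results of these data known. The lists by product name could not be applied, since identifiers were not paired with names. EdgeR 4.0.16 (R 4.3.3) ran its quasi-likelihood F test on the counts of all 48 libraries in 1 fit of 16 group means, with TMM factors, its default filter on low counts (20645 genes) and 32 residual degrees of freedom. A gene was called at a Benjamini-Hochberg adjusted p under 0.05 over these genes. Log2 changes and SE come from this fit. There were 17 comparisons. The fit was tested on simulated data. For chlorsulfuron in resistant plants it recovered 24 of 100 genes set to a log2 change of 1 and 71 of 100 set to 2. It made 2 false calls. Only the genes set to change did so, and they were drawn from genes above a minimum control count. In the real comparison 3056 genes were called higher and 2429 lower. The shares recovered therefore do not measure how many true changes the real fit finds. Alternatives were other scaling, no filter, DESeq2 1.42.0, fragment counts, a plant-number block, single batches and each library left out.

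Identifiers named are the 2 with the lowest d apart in each line, the 2 most abundant, and, for mesotrione, interactions and untreated lines, up to 2 per direction that were called or, where none was, had the smallest p. AmaPaChr01Ag013630, the values of AmaPaChr09Ag154380 and AmaPaChr04Ag082430 given outside that rule, and the Chr00 grouping were chosen after their values were seen. Libraries with the same number were correlated in their deviations from group means. The correlation was over 0.1 in every pair in 8 of 10 treated and control pairs of groups, and not in chlorsulfuron-treated resistant or lactofen-treated susceptible plants.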

Additional observations from a re-analysis of the deposited data

Results flagged for a closer look

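The response of AmaPaChr00Ag261990 to mesotrione differed between the lines by the interaction test, with a log2 difference of -3.28 (resistant minus susceptible). The mesotrione libraries of resistant plants, at 18.9 to 40.7 CPM, lay below their controls at 130.7 to 307.2 CPM. The mesotrione libraries of susceptible plants, at 114.4 to 124.2 CPM, lay above their controls at 68.4 to 80.0 CPM. The adjusted p was 0.00049 in the fit of all 48 libraries, 0.06 with batch 1 alone, and 4.2e-08 to 0.0052 under the other alternatives. The gene was not alone in this. In the fit of all 48 libraries, 16 of the 59 other Chr00 gene models that passed the control filter were also called lower in this interaction.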

How the results depend on the processing

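The members are a narrow choice. The rule gave 9 genes at a chlorsulfuron d of -1 or below, 14 with the other herbicides held under 0.3, 6 where each line had to meet it, and 36 to 56 with a chlorsulfuron or batch 2 control library left out. With TMM factors it gave 59 genes, 32 of them members. For atrazine in resistant plants 2 members (total counts) or 0 (no filter) were called in place of 1, and in susceptible plants 2 (no filter) or 0 (without the 3 susceptible libraries numbered 7) in place of 4. For chlorsulfuron in susceptible plants 18 (total counts) or 15 (without those 3 libraries) were called in place of 29. Over all genes 2368 and 1429 were called lower there, in place of 3098. DESeq2 called 1 in place of 0 for 2,4-D in resistant plants, 5 in place of 1 for mesotrione in resistant plants, and 1 in place of 0 for the lactofen interaction. With a single batch in the fit, 1 in place of 3 was called for lactofen in susceptible plants and 0 in place of 1 for the mesotrione interaction. Of the genes chosen in resistant plants, 25 (total counts) or 17 (without those 3 libraries, an alternative chosen after seeing the data) were called lower in susceptible plants in place of 39. The values without those 3 libraries for members apart from controls, for calls joined over lines and for genes chosen in susceptible plants were also added after seeing the data.

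With a library left out, members called ranged from 18 to 24 (resistant) and 17 to 30 (susceptible) for chlorsulfuron, 0 to 1 and 0 to 4 for atrazine, 0 to 1 (resistant) for 2,4-D, 2 to 4 and 0 to 11 for lactofen, 1 to 5 (resistant) for mesotrione, 1 to 1 for the mesotrione interaction, 0 to 5 for the lactofen interaction and 0 to 2 for untreated lines over the mean. Genes read in the other line ranged from 23 to 41 (chosen in resistant) and 13 to 15 (chosen in susceptible). The lactofen interaction of AmaPaChr02Ag038490 ranged from -0.31 (without resistant lactofen library 1) to 3.17, and the untreated batch 2 difference of AmaPaChr04Ag077430 from -0.07 (without resistant control 7) to 1.01. The cause of these changes was not tested.

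With the plant number as a block, 30 (resistant) and 35 (susceptible) members were called for chlorsulfuron, 5 for lactofen in susceptible plants and 1 for the lactofen interaction. For lactofen in resistant plants 0 were called higher and 4 lower, in place of 1 and 2. It moved no other count of members called, in either direction, by over 1.5 times. No paired analysis was possible for untreated lines because an equal number in both lines cannot be the same plant. Every member held 20 counts or more in every library. With 3 libraries a group, a change that was not called is not shown to be absent.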
